A study of Mus musculus with 12 samples.

Results

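The genes examined here encode the weapons of cytotoxic lymphocytes and the cytokine interferon gamma. The 10 genes were Gzma, Gzmb, Gzmc, Ifng, Prf1, Nkg7, Klrd1, Fasl, Tbx21 and Eomes, taken by name and not by a threshold, and they are 10 of 18193 genes with a named probe set on the array. These genes and the lists below were chosen with earlier results of these data known, so their counts beside those of all genes are descriptive. The 10 genes were read by 13 probe sets. A gene is read here from whichever of its probe sets was brightest on average, and Prf1, Fasl and Eomes each have 1 other probe set, which is given beside it.

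Cytotoxic T cells and natural killer (NK) cells store granzymes, which are serine proteases, in granules together with perforin, and release them onto a target cell, where perforin opens the membrane and granzymes set off its death. Fas ligand kills by another route, through the death receptor Fas. The T-box factors T-bet (Tbx21) and eomesodermin (Eomes) drive this programme and the transcription of Ifng, and interferon gamma acts through its receptor and JAK kinases on target genes such as Irf1, Gbp2 and Irgm1. Double-positive thymocytes, which carry both CD4 and CD8, are immature cells that have not entered the effector programme.

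The arrays come from mice with T cell lymphoma driven by ZMYM2-FGFR1, a fusion that joins the zinc finger protein ZMYM2 to the FGFR1 receptor tyrosine kinase. The lymphoma samples (n = 4) came from mice of the third serial transplant, in which more than 90% of the cells carried GFP, Thy1, CD4 and CD8; lymphomas 1 to 3 were measured unsorted, and lymphoma 4 after a sort for those cells. Normal Thy1+ CD4+CD8+ double-positive (DP) thymocytes of BALB/c mice (n = 3) were sorted, each sample from the thymuses of 3 mice. Haematopoietic stem cells (HSC, n = 2) were sorted as Lin-Sca-1+c-kit+ (LSK) marrow cells, with 5 normal female BALB/c mice in each sort, and leukaemia stem cells (LSC, n = 2) as GFP+ LSK cells from marrow or spleen of 2 to 3 leukaemic mice. ZNF112 is a cell line measured on a single array, and the labels say nothing more of its origin. The labels do not give the age of the mice, nor, for the lymphomas and LSC, the strain. The labels call the replicates biological without saying whether the lymphomas came from separate primary tumours. The p-values therefore rest on the spread between these samples, pooled over the groups.

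The 8 arrays of the T cell side (DP thymocytes, lymphomas and ZNF112) had median intensities of 99.2 to 109, and the 4 arrays of the stem cell side 44.2 to 46.0. Levels were therefore compared within a side, and across sides by the rank of a probe set within its own array. The difference between the contrasts sets one within-side difference against the other, and likeness of pattern uses values after each array's median was subtracted. The LSC arrays stood apart from each other (Pearson r = 0.80 over the 12797 genes tested, against 0.94 between the HSC arrays; genes are not independent replicates), and each LSC value is given separately. Beta-actin gave 3' to 5' signal ratios of 9.82 and 13.6 in LSC, 3.91 and 5.79 in HSC and 2.18 to 3.69 on the T cell side. The 5 markers of LSK cells measured here (Kit, Mecom, Hlf, Procr and Meis1) averaged log2 10.28 and 10.66 in the HSC arrays but 8.21 and 6.50 in LSC 1 and LSC 2, and 9 DP thymocyte markers averaged 8.31 and 9.78 in LSC against 6.94 and 6.52 in HSC. All 5 LSK markers stood above the array median in each HSC array, 4 did in LSC 1 and 2 in LSC 2. Kit, the gene of the sort marker c-kit, read 12.31 in LSC 1 and 10.99 in LSC 2, beside an HSC mean of 11.22. Ly6a, the gene of Sca-1, was not measured. Mecom, Hlf and Meis1, which were not sort markers, read 5.92, 5.37 and 8.19 in LSC 1 and 4.08, 4.77 and 4.93 in LSC 2. Their HSC means were 10.09, 10.88 and 10.67. Of the 5 LSK markers, these 3 were called lower in LSC (limma), where 6.21% of all genes fell. Kit was near its HSC mean in LSC 2, and Procr read 7.73 there beside an HSC mean of 9.49. The T cell genes Thy1, Cd8a and Cd8b1 read 8.67, 8.81 and 7.76 in LSC 1 and 12.51, 11.70 and 10.91 in LSC 2. Their HSC means were 6.09, 5.84 and 5.70, whereas Cd4 read 6.28 and 5.81 in LSC beside 6.21. Which cells gave these values was not tested. The DP markers averaged 12.98 to 13.11 in DP thymocytes, 11.76 to 12.32 in the lymphomas and 10.43 in ZNF112. In these bulk samples a larger number of cells of a type and more RNA per cell cannot be told apart.

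The promoters of Gzma, Gzmb and Ifng are shown first. The transcription of granzymes and Ifng is known to run through Runx, T-box and STAT factors. Each sequence is the 250 bases before the RefSeq transcription start on GRCm38.p6, 5′ to 3′ on the strand of the gene, with matches to the Runx core TGTGGT, the gamma-activated site TTCNNNGAA or the T-box element TCACACCT, searched on both strands, in capitals. The Gzma sequence lies at chr13:113100982-113101231 on the minus strand, that of Gzmb at chr14:56262335-56262584 on the minus strand and that of Ifng at chr10:118440796-118441045 on the plus strand.
Gzma: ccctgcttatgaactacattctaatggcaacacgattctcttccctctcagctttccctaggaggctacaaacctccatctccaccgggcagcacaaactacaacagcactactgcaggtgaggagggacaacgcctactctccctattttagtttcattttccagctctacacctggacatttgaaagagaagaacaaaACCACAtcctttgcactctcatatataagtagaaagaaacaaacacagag
Gzmb: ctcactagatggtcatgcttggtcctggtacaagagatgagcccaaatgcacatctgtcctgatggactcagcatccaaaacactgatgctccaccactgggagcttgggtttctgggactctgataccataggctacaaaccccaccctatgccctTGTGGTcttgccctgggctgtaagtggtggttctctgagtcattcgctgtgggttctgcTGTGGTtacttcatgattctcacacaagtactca
Ifng: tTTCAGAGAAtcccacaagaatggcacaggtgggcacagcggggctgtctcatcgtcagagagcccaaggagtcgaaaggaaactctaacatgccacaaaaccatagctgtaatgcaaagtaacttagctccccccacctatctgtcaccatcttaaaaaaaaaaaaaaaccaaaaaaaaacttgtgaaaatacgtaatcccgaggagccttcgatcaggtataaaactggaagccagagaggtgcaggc
The RefSeq table held 9 of the 10 members, all but Klrd1. In these sequences the Runx letters lay 50 bases before the start in Gzma and 93 and 34 bases before it in Gzmb, and 5 of the 9 members had them (Gzma, Gzmb, Gzmc, Prf1 and Nkg7), against 14% of 32851 promoters of the same length. A gamma-activated site lay 249 bases before the start of Ifng and 220 before that of Nkg7, making 2 of 9 members against 7.02% of promoters. Nkg7 alone had the T-box letters, 14 bases before its start, against 1.12% of promoters. These matches describe letters in this window only.

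Gzma, a tryptase among the granzymes and an abundant protein of NK and cytotoxic T cell granules, was the 1 member called higher in both lymphoma and LSC. Its log2 intensities were 10.46, 10.75 and 10.68 in DP thymocytes, 15.18, 14.18, 14.70 and 14.47 in lymphomas 1 to 4, and 15.03 in the ZNF112 line. They were 6.48 and 6.59 in HSC and 14.24 and 14.59 in LSC. All 4 lymphomas, sorted or not, lay above all DP arrays, and both LSC arrays lay far above both HSC arrays. Gzmb and Ifng, below, also lay apart on both sides without overlap. For Gzmb the gap was narrow in lymphoma, with a lowest value of 6.72 beside a highest DP value of 6.41. The share of all genes that lie apart in this way was not counted, so absence of overlap, here and below, is description only. Within its own array the Gzma probe set stood at percentile 99.8 or higher in every lymphoma, in ZNF112 and in LSC, at 86.6 to 88.3 in DP thymocytes and at 62.8 in HSC. A rank shows how bright a probe set is beside others and is no amount of RNA.

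**Figure D1:**
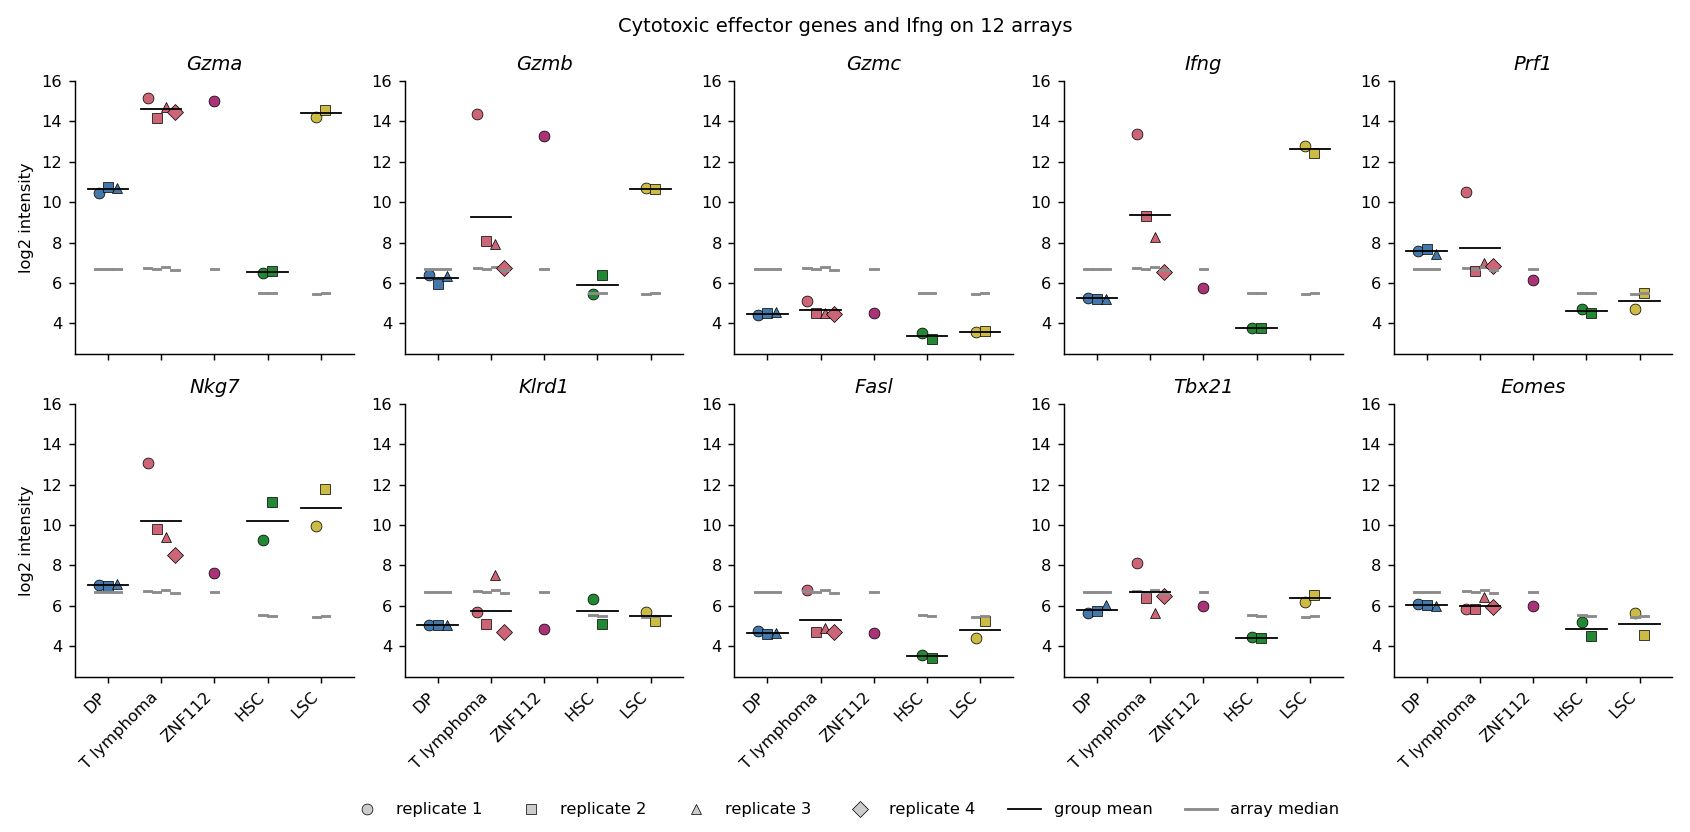
Log2 intensity of the 10 genes on each of the 12 arrays, by group (DP, double-positive thymocytes; lymphoma replicate 4 was sorted), with the group mean as a black bar and the median of each array's probe sets in grey. Gzma is high in all lymphomas and both LSC arrays, and Gzma, Gzmb, Gzmc, Ifng, Prf1, Nkg7, Fasl and Tbx21 are highest among the lymphomas in replicate 1.

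The rise of Gzma between DP thymocytes and T lymphoma was 4.0 ± 0.24 on the log2 scale (SE), or 16-fold (limma, Benjamini-Hochberg adjusted p = 1.86e-05), from 10.63 ± 0.15 (SD, n = 3) to 14.63 ± 0.42 (SD, n = 4). Between HSC and LSC it rose by 7.88 ± 0.31, or 236-fold (limma adjusted p = 3.23e-06), from 6.53 ± 0.08 (SD, n = 2) to 14.41 ± 0.24 (SD, n = 2). The rise on the stem cell side was larger by 3.88 ± 0.39 (limma adjusted p = 0.00101). Gzma was the 1 member of 7 for which the rises differed, beside 8.88% of all genes, 3.59% with the larger difference on the stem cell side. The mean of HSC was at a lower rank within its arrays than that of DP thymocytes, as given above. In lymphoma and LSC alike Gzma stood at percentile 99.8 or higher. The part of a ceiling on bright signals, or of a difference in scale between the sides, in this difference was not tested. When the HSC and LSC arrays were fitted alone, which leaves 2 against 2, the adjusted p of Gzma was 0.0529 and no gene on the array passed. The single Gzma probe set carries the suffix _a_at, which marks probes shared by transcripts of the same gene.

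Gzmb, the granzyme that cleaves caspases, was high on fewer arrays. It read 6.41, 5.95 and 6.35 in DP thymocytes and 14.38, 8.10, 7.93 and 6.72 in lymphomas 1 to 4, with 13.28 in ZNF112. On the stem cell side it read 5.44 and 6.4 in HSC and 10.69 and 10.65 in LSC. Every lymphoma lay above every DP array and both LSC arrays above both HSC arrays, but lymphoma 1 stood far above the other lymphomas and the sorted lymphoma only 0.48 above the DP mean. Gzmb did not pass in either comparison, with differences of 3.04 ± 1.52 for lymphoma (limma adjusted p = 0.274) and 4.75 ± 1.99 for LSC (limma adjusted p = 0.171), and without lymphoma 1 the first was 1.34. The mast cell and basophil markers Cpa3, Fcer1a and Ms4a2 read 14.48, 13.99 and 13.76 in LSC 1, 5.25, 5.20 and 5.66 in LSC 2, 9.58, 8.52 and 9.81 in HSC 1 and 9.46, 8.26 and 9.84 in HSC 2. Mcpt8, a basophil protease, read 10.70 and 10.11 in HSC and 8.74 and 4.54 in LSC and was called lower in LSC, with a difference of -3.77 ± 1.00 (limma adjusted p = 0.0451), a call lost without HSC 1 or HSC 2 (limma adjusted p = 0.152 and 0.120). Gzmb, which such cells also make, was nearly the same in both LSC arrays, and the part of such cells in it was not tested. On the T cell side Cpa3 was high in ZNF112 alone, at 10.26 beside 5.59 to 6.31 on the other arrays. Fcer1a, Ms4a2 and Mcpt8 were not high there. They read 4.65, 5.33 and 5.20 in ZNF112, within the lymphoma ranges of 4.56 to 4.83, 5.10 to 5.47 and 4.87 to 5.23.

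Gzmc, a granzyme of strongly activated killer cells, was dim throughout. It ranged from 4.41 to 5.11 on the T cell side and from 3.24 to 3.60 on the stem cell side, under the filter level of log2 6.33 (an intensity of 80.2, the median of all values) on all 12 arrays, and was not tested. Lymphoma 1 gave its highest value, 5.11, where the other lymphomas read 4.44 to 4.53.

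Ifng encodes interferon gamma, the cytokine by which these cells act on macrophages and on antigen presentation. It read 5.28, 5.23 and 5.19 in DP thymocytes and 13.37, 9.34, 8.30 and 6.55 in lymphomas 1 to 4. ZNF112 read 5.74. HSC read 3.76 and 3.79 and LSC 12.80 and 12.46. All lymphomas lay above all DP arrays, the sorted one least (1.32 above the DP mean), and the cell line lay below every lymphoma. Both LSC arrays stood near the top of their arrays, at percentiles 99.2 and 98.8, beside 10.7 and 12 in HSC.

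Ifng rose by 8.85 ± 1.66 on the log2 scale between HSC and LSC (limma adjusted p = 0.0113). The size is not exact, since both HSC values lay under the filter level and among the dimmest of their arrays. The adjusted p was 0.0559 without HSC 2 and 0.0529 with the HSC and LSC arrays fitted alone, with the same direction and nearly the same size. Between DP thymocytes and T lymphoma the difference was 4.15 ± 1.27 (limma adjusted p = 0.0919), not called. Ifng passed when lymphoma 1 was left out, at 2.83 (limma adjusted p = 0.0322), and when the sorted lymphoma 4 was left out, at 5.10 (limma adjusted p = 0.0196). The difference between the contrasts, 4.70 ± 2.09, was not called (limma adjusted p = 0.197), and without lymphoma 1 it was 6.02 (limma adjusted p = 0.0104).

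**Figure D2:**
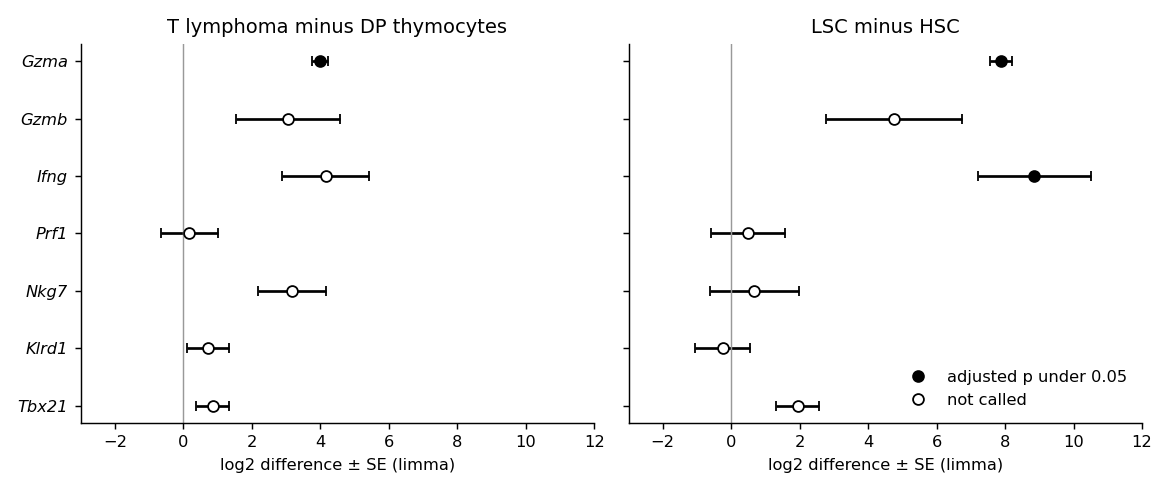
Log2 differences with their standard errors (limma) for the 7 members that were tested, T lymphoma minus DP thymocytes on the left and LSC minus HSC on the right; filled circles passed an adjusted p of 0.05. Gzma is filled in both panels, at 4.0 and 7.88, and Ifng in the right panel, at 8.85.

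Prf1, which encodes perforin, did not follow the granzymes. It read 7.58, 7.69 and 7.42 in DP thymocytes and 10.48, 6.6, 7.0 and 6.86 in lymphomas 1 to 4, with 6.14 in ZNF112. HSC read 4.72 and 4.52 and LSC 4.71 and 5.50. Lymphoma 1 was above, and the other lymphomas and the cell line below, every DP array. The difference was 0.17 ± 0.82 for lymphoma (limma adjusted p = 0.935) and 0.48 ± 1.08 for LSC (limma adjusted p = 0.823), and without lymphoma 1 the first was -0.74. The other probe set of Prf1 did not show lymphoma 1 apart, reading 6.35 there beside 6.33 to 6.87 in the other lymphomas and 6.72 to 7.10 in DP thymocytes, so the high Prf1 value rests on 1 of 2 probe sets.

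Nkg7, a granule membrane protein needed for degranulation, read 7.06, 7.0 and 7.08 in DP thymocytes and 13.10, 9.81, 9.39 and 8.54 in lymphomas 1 to 4. ZNF112 read 7.61, HSC 9.25 and 11.12, and LSC 9.94 and 11.77. The lymphomas lay above the DP arrays without overlap, whereas the HSC and LSC ranges overlapped. The differences, 3.16 ± 1.00 for lymphoma (limma adjusted p = 0.10) and 0.67 ± 1.30 for LSC (limma adjusted p = 0.794), were not called. Without the sorted lymphoma 4 the first was called, at 3.72 (limma adjusted p = 0.0427).

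Klrd1 encodes CD94, the partner chain of NKG2 receptors on NK cells and activated CD8 T cells. It read 5.03, 5.07 and 5.03 in DP thymocytes, 5.68, 5.10, 7.53 and 4.72 in lymphomas 1 to 4 and 4.86 in ZNF112. HSC read 6.35 and 5.10 and LSC 5.72 and 5.23. Lymphoma 3 stood alone, and Klrc1, the gene of the partner chain NKG2A, was also highest there (6.70, beside 4.45 to 4.85 in the other lymphomas). The same array held the B cell marker Ms4a1 at 10.74, beside 5.53 to 6.59 in the other lymphomas, and the part of other cells in these values was not tested. Klrd1 passed the filter on 2 arrays only, and its differences of 0.71 (limma adjusted p = 0.538) and -0.25 (limma adjusted p = 0.879) were not called.

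Fasl, the ligand of Fas, was dim on most arrays, at 4.76, 4.62 and 4.65 in DP thymocytes, 6.77, 4.73, 4.90 and 4.72 in lymphomas 1 to 4 and 4.65 in ZNF112. HSC read 3.58 and 3.44 and LSC 4.40 and 5.23. Lymphoma 1 was the single array above the filter level, so Fasl was not tested, and both LSC arrays lay above both HSC arrays at dim values. Its other probe set stayed between 3.85 and 5.03 on all arrays, with 5.03 in lymphoma 1 and 4.93 in a DP array.

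Tbx21, the gene of T-bet, read 5.64, 5.73 and 6.04 in DP thymocytes, 8.14, 6.38, 5.64 and 6.50 in lymphomas 1 to 4 and 6.01 in ZNF112. HSC read 4.47 and 4.40 and LSC 6.22 and 6.52. Lymphoma 1 was again highest, lymphoma 3 overlapped the DP arrays, and LSC lay above HSC without overlap. The differences of 0.86 ± 0.48 (limma adjusted p = 0.329) and 1.94 ± 0.63 (limma adjusted p = 0.0872) were not called. Eomes, the related T-box gene, stayed under the filter level on all but 1 array and was not tested. It read 5.98 to 6.10 in DP thymocytes, 5.82 to 6.44 in the lymphomas, 5.98 in ZNF112, 4.49 and 5.20 in HSC and 4.58 and 5.63 in LSC, with overlap on both sides, and its other probe set read 3.97 to 5.66.

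Among the 7 members tested, 1 rose in T lymphoma (Gzma) and 2 rose in LSC (Gzma and Ifng), and 0 fell in either (limma). At an unadjusted p under 0.05, 3 members were higher in lymphoma and 4 in LSC, and 0 were lower, where 11.3% of all genes were higher in lymphoma and 10.9% in LSC. Of the 12797 genes tested, 3.37% rose in lymphoma and 4.05% in LSC, and 3.18% and 6.21% fell, 6.55% and 10.3% in all. The median difference of the 7 was 3.04 in lymphoma beside -0.02 over all genes tested, and 1.94 in LSC beside -0.03. These 7 were chosen with earlier results of these data known. They also passed a filter that a gene can pass through the group where it is high. The count and median therefore describe the measured members only. By arrays, 3 of the 10 members stood above the array median on each DP array and in ZNF112 and each HSC array. In lymphomas 1 to 4 the numbers were 7, 4, 6 and 4, and in LSC 1 and LSC 2 they were 7 and 6.

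**Figure D3:**
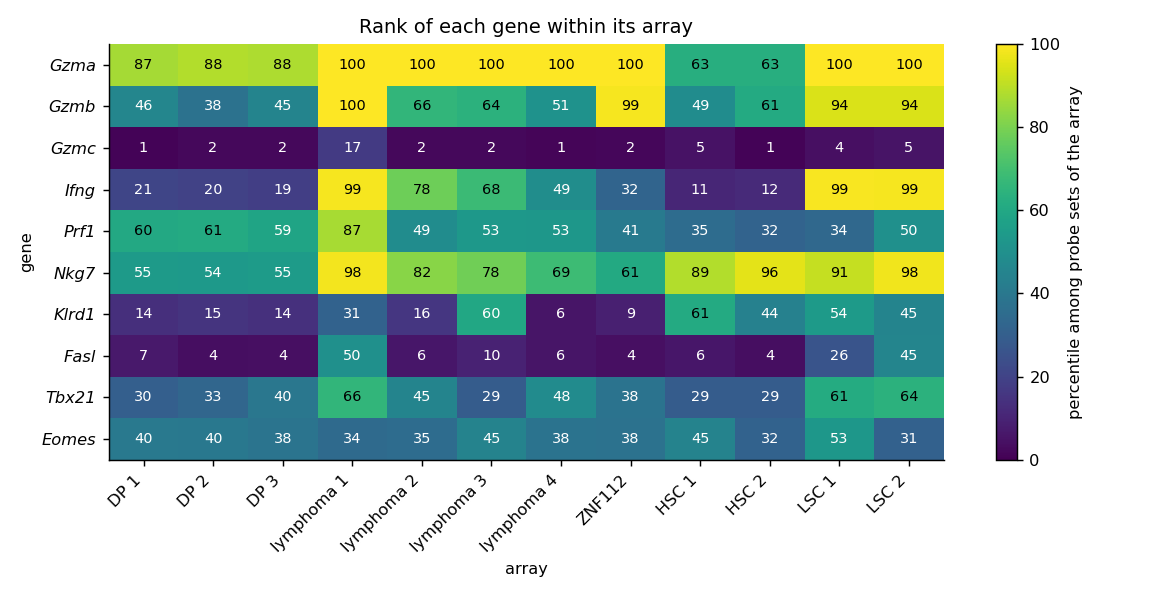
Percentile of each member's probe set among the probe sets of the same array, with genes in rows and the 12 arrays in columns; the printed numbers are rounded percentiles. Gzma lies at 99.8 or higher in every lymphoma, the cell line and LSC, and Gzmc lies at 16.9 or lower everywhere.

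The ZNF112 line was compared with the lymphomas, and 0 of the 7 members were called (limma), while 1.16% of the genes tested were, 0.539% higher and 0.617% lower; with an unadjusted p under 0.05 the number of members was also 0, beside 12.1% of all genes. Gzma differed by 0.39 ± 0.35 (limma adjusted p = 0.738). Gzmb was 4.0 ± 2.23 higher than the mean of the lymphomas (limma adjusted p = 0.537), reading below lymphoma 1 and above the other lymphomas; without lymphoma 1 the difference was 5.70 and passed (limma adjusted p = 0.00666). Ifng differed by -3.65 ± 1.85 (limma adjusted p = 0.489) and Nkg7 by -2.60 ± 1.46 (limma adjusted p = 0.540), and both read below every lymphoma. A single array has no spread of its own, and it was taken to vary like the other groups.

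Sorting was examined with the sorted lymphoma 4 set against lymphomas 1 to 3, arrays that also enter the contrast with DP thymocytes. None of the 7 members was called (limma) beside 0.656% of all genes (0.0625% higher and 0.594% lower), and 1 member, Ifng, had an unadjusted p under 0.05, as did 9.99% of all genes. Only 1 tumour was sorted, so sorting and the individual tumour cannot be told apart. The sorted sample differed by -3.78 ± 1.53 for Ifng (limma adjusted p = 0.466), -3.42 ± 2.11 for Gzmb, -2.23 ± 1.38 for Nkg7, -1.38 ± 0.84 for Klrd1 and -0.21 ± 0.37 for Gzma. Within the sorted sample Gzma stood 3.84 above the DP mean and Nkg7 1.49.

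Markers of other cells differed between the sorted and the unsorted lymphomas. The mean of 4 macrophage markers was log2 11.26, 10.36 and 10.59 in lymphomas 1 to 3 and 7.30 in the sorted lymphoma, beside 7.04 to 7.20 in DP thymocytes, and that of 4 stromal markers was 9.94, 9.38, 9.38 and 6.15. Gzma in the sorted lymphoma, where these markers were near their DP level, lay within the range of the unsorted ones, whereas Ifng, Gzmb and Nkg7 were lower there than in each unsorted lymphoma; the part of other cells in any of these values was not tested. Of 13 listed NK cell markers 11 were measured, with means of 5.64 to 5.67 in DP thymocytes, 7.14, 6.53, 6.71 and 5.78 in lymphomas 1 to 4, 5.68 in ZNF112, 6.07 and 5.55 in HSC and 6.32 and 5.36 in LSC. The NK cell receptors Ncr1, Klra8, Klra7 and Klre1 stayed between 3.51 and 5.47 on every array, under the filter level. Klrk1 also stayed under it, with its highest lymphoma value, 5.98, in lymphoma 1. Klrc1 passed it in lymphoma 3 alone, at 6.70. Cd244a passed it on 7 arrays, reading 6.30 to 6.52 in DP thymocytes and 6.39 to 6.62 in the lymphomas. Of the 5 NK-list genes tested, 0 were called in lymphoma (limma), where 3.37% of all genes rose and 3.18% fell. At an unadjusted p under 0.05 (limma), Fcgr3, Tyrobp and Il2rb were higher in lymphoma, beside 11.3% of all genes. Fcgr3, Tyrobp and Fcer1g, which macrophages also express, read 11.95, 10.31 and 9.85 in lymphoma 1 and 6.0, 6.30 and 7.04 in the sorted lymphoma. Il2rb, a receptor chain of interleukin-2 and interleukin-15, read 9.42, 7.43, 6.56 and 8.10 in lymphomas 1 to 4 and 6.16 to 6.36 in DP thymocytes, so the sorted lymphoma was above the DP arrays for it. The values of 8 markers of mature CD8 T cells, among them Cd8a and Cd8b1, which DP thymocytes also carry, averaged 8.96 to 9.0 in DP thymocytes, 10.32, 9.60, 9.41 and 9.47 in the lymphomas, 6.96 in ZNF112, 7.09 and 6.32 in HSC and 8.58 and 9.40 in LSC. Members of this list ran both ways in lymphoma, where 3.37% of all genes rose and 3.18% fell. Itgae, the integrin chain CD103, was the 1 of 8 called (limma). It read 7.08 to 7.40 in DP thymocytes and 13.04, 11.24, 10.73 and 12.73 in lymphomas 1 to 4, a rise of 4.73 ± 0.52 (limma adjusted p = 8.28e-04), and Cd8b1 differed by -2.02 ± 0.69 (limma adjusted p = 0.127). In LSC 4 of the 8 rose and 0 fell (limma), where 4.05% of all genes rose and 6.21% fell. Of the 9 DP thymocyte markers 5 rose there and 0 fell (limma): Cd8a, Cd8b1, Rag1, Thy1 and Cd3e. The calls of Rag1, Thy1 and Cd3e were not followed through the alternative fits. On the CD8 list Itgae, Cd8a, Cxcr3 and Cd8b1 rose in LSC, by 5.31, 4.41, 3.49 and 3.63 (limma adjusted p of 0.00204 to 0.0353). With array weights none of these was called, with adjusted p of 0.0557 to 0.173 (limma). The call of Cd8a was lost without HSC 2, that of Cd8b1 without HSC 1, HSC 2 or LSC 2 and that of Cxcr3 without HSC 2 or LSC 2, with adjusted p of 0.0589 to 0.132 (limma), and Itgae kept its call in each such fit.

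**Figure D4:**
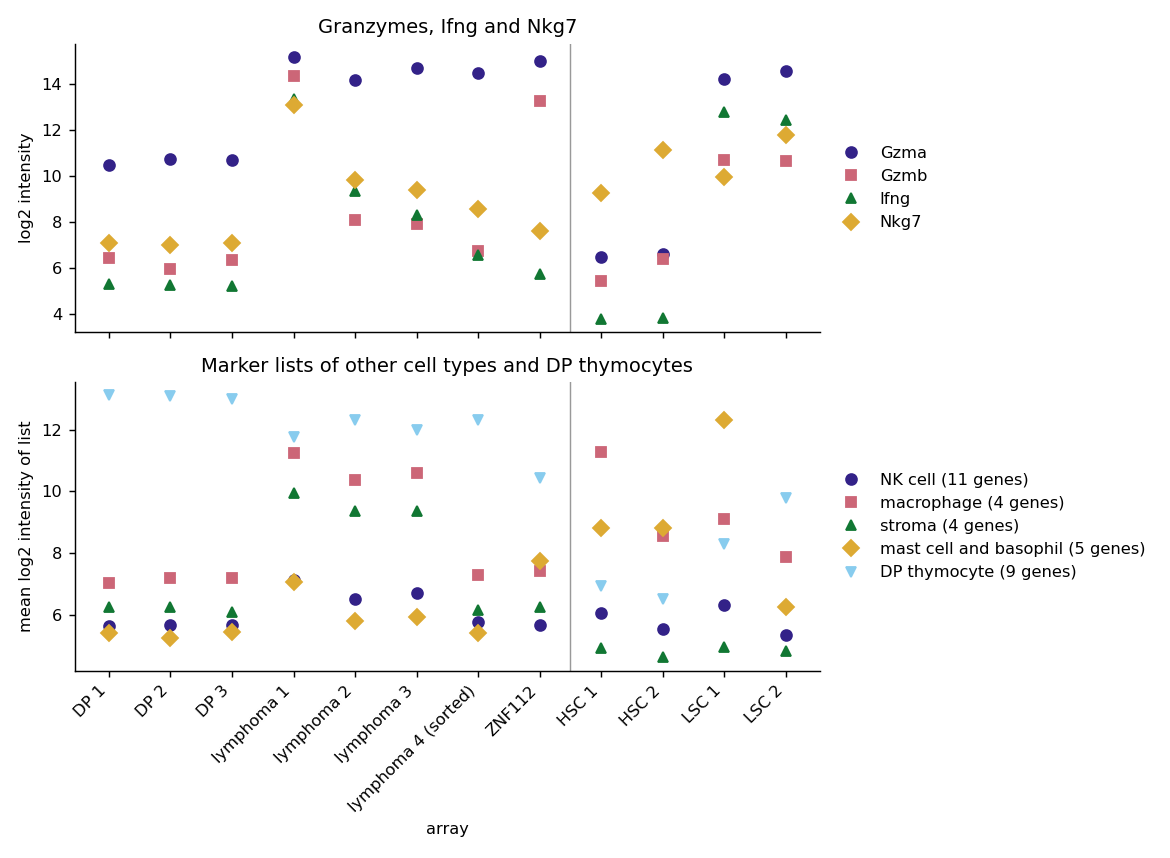
Top, log2 intensity of Gzma, Gzmb, Ifng and Nkg7 on each array; bottom, mean log2 intensity of marker lists of other cell types and of DP thymocytes on the same arrays. The grey line parts the T cell side from the stem cell side, whose levels are not on a common scale, and the mast cell and basophil list includes Gzmb itself. Gzma stays at 14.47 in the sorted lymphoma, where the macrophage list is at 7.30.

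A list of 24 other genes of granules and killing was measured in full, and 18 were tested. In T lymphoma 2 rose and 0 fell (limma), where 3.37% of all genes rose and 3.18% fell. At an unadjusted p under 0.05, 7 were higher and 2 lower, where 11.3% of all genes were higher and 11.3% lower. Serpinb9, the serpin that inhibits granzyme B and shields killer cells from their own protease, rose by 2.96 ± 0.30 (7.79-fold, limma adjusted p = 5.1e-04), and its relative Serpinb6b by 2.23 ± 0.36. Serpinb9 read 8.60 to 8.73 in DP thymocytes and 12.39, 11.67, 11.53 and 10.91 in lymphomas 1 to 4, without overlap. In LSC 4 rose and 0 fell (limma), where 4.05% of all genes rose and 6.21% fell, and 8 were higher and 1 lower unadjusted, where 10.9% of all genes were higher and 15% lower. Serpinb9 rose by 2.56 ± 0.39, Serpinb6b by 3.01 ± 0.47, the death receptor gene Fas by 3.85 ± 0.59 and the cytokine gene Tnf by 1.05 ± 0.27. With array weights none of these was called, with adjusted p of 0.0719 to 0.412 (limma). With the HSC and LSC arrays fitted alone no gene was called. The Tnf call was lost without any 1 of the 4 HSC and LSC arrays, with adjusted p of 0.0531 to 0.143 (limma); the calls of Serpinb9, Serpinb6b and Fas held in each such fit.

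Fas ran in opposite directions on the sides. It read 11.24, 10.87 and 10.64 in DP thymocytes and 9.38, 9.44, 8.65 and 9.63 in the lymphomas, a difference of -1.64 ± 0.45 (limma adjusted p = 0.0649, not called), and 4.83 and 4.37 in HSC beside 7.42 and 9.48 in LSC. The difference between the contrasts was 5.49 ± 0.74 (limma adjusted p = 0.0037). Lyst, a regulator of granule size, also differed between the contrasts (2.02 ± 0.48, limma adjusted p = 0.0335), and lost this call when any DP array, lymphoma 2 or 3, HSC 1 or LSC 2 was left out, with adjusted p up to 0.0884 (limma). Ctsw, a protease of cytotoxic cells, was 2.92 ± 0.82 higher in lymphoma without passing (limma adjusted p = 0.0705). The median of the 18 genes was 0.69 in lymphoma and 0.89 in LSC.

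Of 25 listed regulators of Ifng and effector fate, 22 were measured and 21 tested, and in T lymphoma 6 rose and 1 fell (limma; 3.37% and 3.18% of all genes). At an unadjusted p under 0.05, 11 were higher and 3 lower, beside 11.3% of all genes each way. The high-affinity interleukin-2 receptor chain Il2ra rose most, from 6.06, 6.57 and 6.47 in DP thymocytes to 13.69, 13.43, 13.29 and 13.73 in the lymphomas, by 7.17 ± 0.21 (limma adjusted p = 2.92e-07). Bhlhe40, a factor that supports cytokine production, rose by 3.68 ± 0.78, Runx3, which binds the Runx core in cytotoxic cells, by 3.33 ± 0.74, Id2, a factor of effector and innate lymphocytes, by 3.21 ± 0.75, the interleukin-18 receptor Il18r1 by 2.55 ± 0.61 and the interferon-regulated factor Irf1 by 2.07 ± 0.35. Gata3, the factor of the opposing Th2 fate and of early T cells, fell by 2.30 ± 0.34. The calls of Runx3, Bhlhe40, Id2 and Il18r1 were lost without any 1 of the DP arrays, lymphoma 1 or lymphoma 2, and those of Id2 and Il18r1 also without lymphoma 3, with adjusted p between 0.0556 and 0.158 (limma). Those of Il2ra, Irf1 and Gata3 held in all 7 such fits. With the sorted lymphoma as the only tumour array, which has no spread of its own and was taken to vary like the other groups, Il2ra and Runx3 passed and the other 5 did not, Irf1 at 2.28 (limma adjusted p = 0.167) and Gata3 at -1.53 (limma adjusted p = 0.201) among them. A probe set of Id2 without a suffix for shared transcripts differed by 0.82 only (limma adjusted p = 0.174).

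In LSC 5 of the 21 regulators rose and 0 fell (limma; 4.05% and 6.21% of all genes), and 10 were higher and 1 lower at an unadjusted p under 0.05 (10.9% and 15% of all genes). Il2ra rose by 7.71 ± 0.28, from 5.38 and 4.76 in HSC to 12.76 and 12.79 in LSC, nearly the same on both arrays. Lef1, a T cell factor of the Wnt pathway, rose by 3.81 ± 0.37, Bhlhe40 by 4.22 ± 1.02, Il18r1 by 3.61 ± 0.80 and Stat4, which carries interleukin-12 signals to Ifng, by 1.59 ± 0.43. Stat4 lost its call without HSC 1, HSC 2 or LSC 2, Bhlhe40 without HSC 2, LSC 1 or LSC 2, and Il18r1 without HSC 1, HSC 2 or LSC 1, with adjusted p between 0.0516 and 0.191 (limma), while Il2ra and Lef1 kept theirs. The contrasts differed for Lef1 (4.45 ± 0.46, limma adjusted p = 0.0012) and Gata3 (3.46 ± 0.56, limma adjusted p = 0.0075). In ZNF112 Stat4 and Serpinb9 were lower than in the lymphomas, at 5.35 and 8.68, with differences of -5.26 ± 0.48 (limma adjusted p = 0.00236) and -2.94 ± 0.43 (limma adjusted p = 0.0177), neither called with only the arrays of that contrast (limma adjusted p = 0.113 and 0.211). Zeb2, a factor of terminal effector cells that macrophages also express, was lower in the sorted lymphoma (4.85) than in the unsorted ones (7.81 to 8.23), a difference of -3.19 ± 0.38 (limma adjusted p = 0.0133). The sorted sample is 1 array, taken to vary like the other groups, and the adjusted p of Zeb2 was 0.147 with only the arrays of the contrast and 0.512, at -1.57, with the mean of its probe sets (limma).

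**Figure D5:**
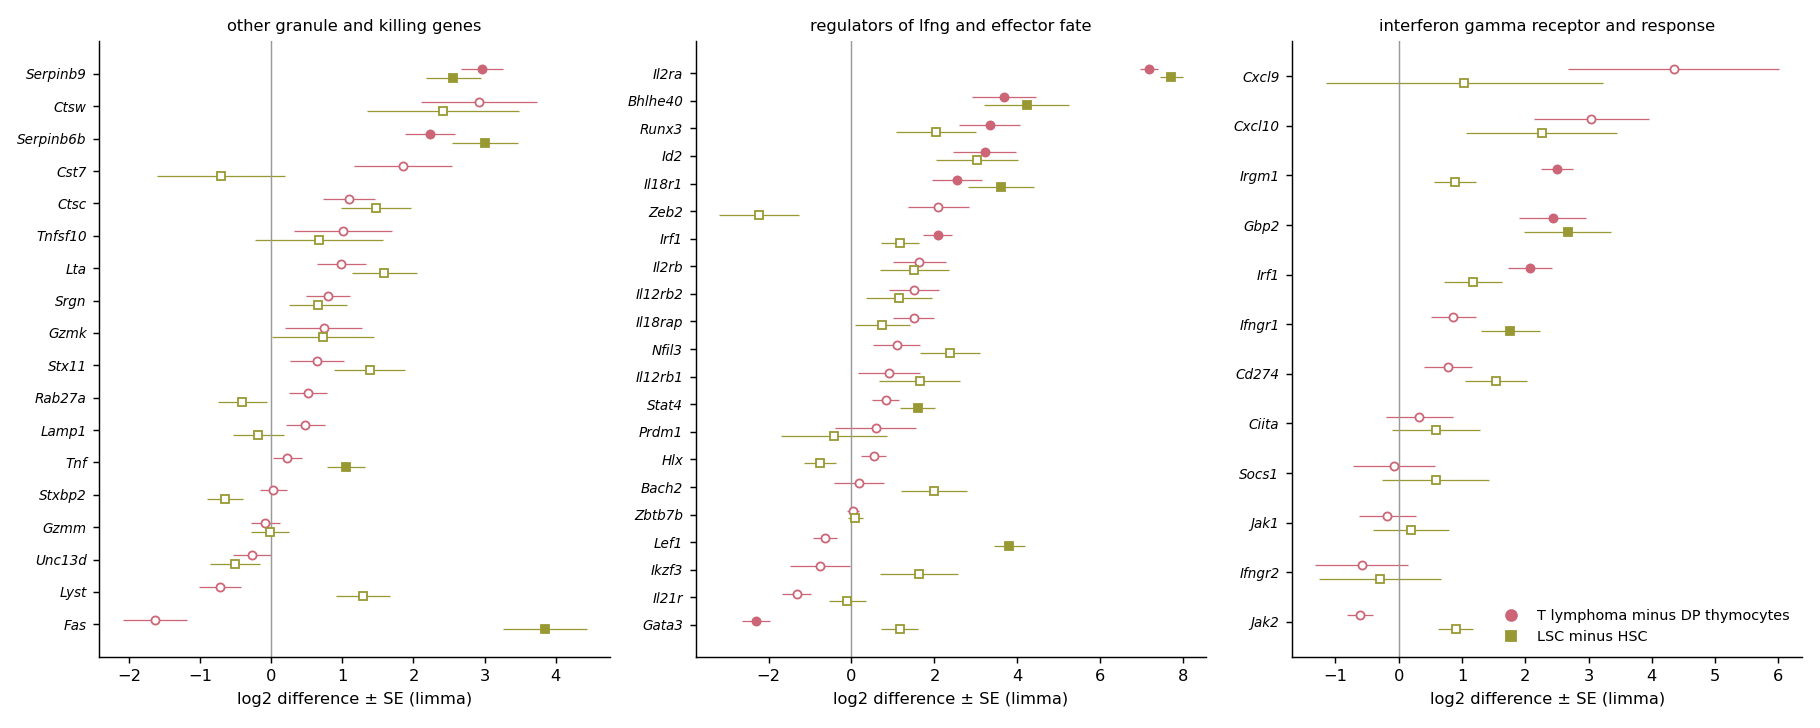
Log2 differences with standard errors (limma) of the tested genes in 3 lists, for T lymphoma minus DP thymocytes (circles) and LSC minus HSC (squares); filled symbols passed an adjusted p of 0.05. Il2ra lies at 7.17 and 7.71, Fas at -1.64 and 3.85, and Gata3 at -2.30 in lymphoma.

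The receptor and response genes of interferon gamma were a list of 13, with 12 measured and tested. In T lymphoma 3 rose and 0 fell (limma; 3.37% and 3.18% of all genes), and 6 were higher and 1 lower at an unadjusted p under 0.05, beside 11.3% of all genes each way. Irgm1, an interferon-inducible GTPase, rose by 2.5 ± 0.25 (limma adjusted p = 5.2e-04), Gbp2, a guanylate-binding protein, by 2.43 ± 0.53, and Irf1 as above. Gbp2 was read from a probe set ending in _x_at. Without probe sets ending in _x_at, _s_at or _a_at Gbp2 differed by 2.43 and was not called (limma adjusted p = 0.0764). The call of Gbp2 was lost without any 1 of the DP arrays, lymphoma 1 or lymphoma 2, with adjusted p of 0.0649 to 0.110 (limma). The sorted lymphoma and ZNF112, where Ifng was lowest among the tumour samples, read 13.72 and 12.46 for Gbp2 and 10.86 and 12.18 for Irgm1, above the DP ranges, 10.51 to 10.69 and 8.53 to 8.87. The chemokine genes Cxcl9 and Cxcl10 read 13.75 and 11.49 in lymphoma 1, and 5.09 and 7.89 in the sorted lymphoma, where DP thymocytes read 5.30 to 5.45 and 6.34 to 6.56, so the sorted lymphoma was above the DP arrays for Cxcl10 and below them for Cxcl9; their differences of 4.34 ± 1.67 and 3.05 ± 0.91 were not called (limma adjusted p = 0.165 and 0.0864).

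In LSC 2 of the 12 response genes rose and 0 fell (limma; 4.05% and 6.21% of all genes), and 6 were higher and 0 lower at an unadjusted p under 0.05 (10.9% and 15% of all genes). Ifngr1, a receptor chain, rose by 1.76 ± 0.46 and Gbp2 by 2.67 ± 0.69, and without LSC 2 these were 0.97 and 1.56. Both calls were lost without HSC 1, HSC 2 or LSC 2, with adjusted p of 0.0739 to 0.172 (limma). Without probe sets ending in _x_at, _s_at or _a_at Gbp2 differed by 2.23 in LSC and was not called (limma adjusted p = 0.164). Between the contrasts Jak2 differed by 1.51 ± 0.35 (limma adjusted p = 0.0297) and Irgm1 by -1.61 ± 0.42 (limma adjusted p = 0.0448). Jak2 lost this call when any DP array, lymphoma 2 or HSC 1 was left out, and Irgm1 without any DP array, lymphomas 1 to 3, HSC 2 or LSC 2, with adjusted p up to 0.127 (limma).

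The genes most like Gzma over the 12 arrays, after each array's median was subtracted, were Rdh10 (Pearson r = 0.95), Gbp7 (0.95), Tasp1 (0.95), Il2ra (0.94) and Mycn (0.94). Those most like Ifng were P2rx3 (0.96), Gpx8 (0.96), Neb (0.94), Ccn3 (0.93) and Serpinb6b (0.93). Over the 8 arrays of the T cell side alone, r was 0.94 to 0.99 for the first 5 genes and 0.90 to 0.98 for the others. The arrays share groups and sides, so these values describe likeness of pattern over 12 points that fall into clusters.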

How the data were processed

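RNA of 12 samples was measured on Affymetrix Mouse430 2.0 arrays after two-cycle amplification, per the labels. The authors deposited linear intensities for each probe set, made with RMA per the submitters' processing notes, which give no version. The array medians differed by side, so the sides appear to have been normalized apart. Log2 was taken of each intensity. Of 45101 probe sets, 64 controls stayed out, 34945 had 1 gene symbol in the platform annotation and 932 had several. Each of 18193 genes was read by its brightest probe set, and 12797 genes above log2 6.33 (an intensity of 80.2, the median of all values) in at least 2 arrays were tested, among them 7 of the 10 members. Arrays hold no depth, and their number limits the precision.

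All tests were two-sided and came from limma 3.58.1 (lmFit with eBayes, R 4.3.3), fitted to the 12 arrays together. The fit had 1 mean per group and 1 shared spread. The groups varied unequally. The root mean square SD over the genes tested was 0.15 in DP thymocytes, 0.62 in lymphomas, 0.55 in HSC and 1.02 in LSC. The shared spread is thus not that of LSC alone. A Benjamini-Hochberg adjusted p under 0.05 over all genes tested counted as a call. The script was tested on simulated data. Lymphoma was set against DP thymocytes and LSC against HSC, and the difference between these contrasts was tested; ZNF112 was set against all lymphomas, and lymphoma 4 against the unsorted ones. Alternatives covered the filter, the choice of probe set, quantile normalization, the shrinkage, array weights, fewer arrays in the fit, the replicate block, and each replicate left out.

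The members and lists were chosen with earlier results of these data known. All members are named, with list genes that were called, at most 4 others per list, and for Gzma and Ifng the 5 genes of the highest Pearson correlation. Marker genes are given as levels of their lists. Promoter sequences are from RefSeq. The files name no genome build, and coordinates are those of the promoter table. A gene sequence or protein beyond these was not used here.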

Additional observations from a re-analysis of the deposited data

Results flagged for a closer look

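A lymphoma was taken to stand apart where its gap to the nearest other lymphoma, divided by the range of all 4, was above 0.829, Dixon's critical value for 4 samples. In lymphoma 1, 3 members did so: Gzmc at log2 5.11, Prf1 at 10.48 and Fasl at 6.77. Ifngr1 was apart the other way in lymphoma 2, at 13.26. Of 28 genes examined in the group of 4 lymphomas, chance sets such a sample apart for about 5% of genes. The rise between HSC and LSC differed from that between DP thymocytes and T lymphoma, by the test of the difference itself, for Gzma (3.88), Fas (5.49), Lef1 (4.45), Gata3 (3.46), Lyst (2.02), Jak2 (1.51) and Irgm1 (-1.61).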

How the results depend on the processing

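Gzma kept its direction in the lymphoma and LSC contrasts and in their difference under every alternative that kept its probe set, and its call under all but the fit of the HSC and LSC arrays alone. Without probe sets ending in _x_at, _s_at or _a_at, Gzma is not measured, and the members called were 0 in lymphoma, 1 in LSC (Ifng) and 0 in the difference. With array weights they were 4 in lymphoma (Gzma, Gzmb, Ifng and Nkg7), 1 in LSC (Gzma) and 1 for ZNF112 (Ifng), and with the HSC and LSC arrays alone 0. Leaving out each replicate gave 1 to 3 members in lymphoma, 1 to 2 in LSC, 1 to 3 in the difference, 0 to 1 for ZNF112 and 0 to 0 for the sorted sample.

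Genes called over the whole array moved more. Array weights called 4681 genes in lymphoma (838 otherwise), 103 in LSC (1313), 311 in the difference (1136), 1834 for ZNF112 (148) and 948 for the sorted sample (84). Fits with only the arrays of a contrast called 1826, 0, 4 and 0 for lymphoma, LSC, ZNF112 and the sorted sample, and lymphoma 4 alone against DP thymocytes called 320. For the sorted sample no filter called 53, the mean of all probe sets 50 and dropping the suffixed probe sets 52. Leaving out each replicate gave 383 to 1572, 774 to 2716, 446 to 2444, 68 to 290 and 40 to 248 in the order of the contrasts. The cause was not tested.

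Some differences that were not called turned sign. Prf1 in lymphoma was -0.099 with the mean of its probe sets, -0.37 without suffixed ones, -0.13 with array weights, -0.70 with the sorted lymphoma alone (Klrd1 -0.33 there), and -0.74 (without lymphoma 1) to 0.55 with single arrays left out. With single arrays left out, LSC values ran from -0.27 (without HSC 1) to 1.61 for Nkg7, which was -0.25 without LSC 2, and from -0.87 to 0.37 (without HSC 1) for Klrd1. Prf1 in the difference ran from -0.089 (without LSC 2) to 1.22 and was -0.068 without lymphoma 2. For the sorted sample the highest values were those without lymphoma 1: Prf1 ran from -1.88 to 0.058, Gzma from -0.47 to 0.035 and Tbx21 from -0.76 to 0.49. Without suffixed probe sets Prf1 was 0.52 for the sorted sample and 0.039 for ZNF112.

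The replicate numbers do not pair the samples: deviations of same-numbered DP and lymphoma arrays correlated at 0.03, -0.07 and -0.00, and those of HSC and LSC at 0.10. With the replicate block, 2 members were called in lymphoma (Gzma and Ifng, which was 5.10). Number 4 belongs to lymphoma 4 alone, so its block takes up that array. Ifng was likewise 5.10 when lymphoma 4 was left out, so the block adds no separate check of Ifng. No paired analysis was possible for ZNF112, which has no number, or for the sorted sample, because a block for each number leaves nothing to estimate it.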
